A study of Mus musculus with 2 samples.

Results

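The genes described here are 57 splicing regulators measured in the muscle wall of the jejunum, the tunica muscularis, with and without a deletion of *Dnmt1*, out of 18159 gene symbols in the expression table. They were taken by name, from a list chosen with earlier results of these data known: every symbol made of *Srsf*, *Hnrnp* or *Sf3a* and *Sf3b* with its number or letters, together with *U2af1*, *U2af2*, *Ptbp1*, *Ptbp2*, *Ptbp3*, *Mbnl1*, *Mbnl2*, *Celf1*, *Celf2*, *Rbfox2*, *Rbpms*, *Rbpms2*, *Qk*, *Esrp1*, *Esrp2*, *Tra2a* and *Tra2b*. They fell into 13 SR and Tra2 genes, 20 hnRNP genes, 11 SF3 and U2AF genes, 3 PTBP genes, 4 MBNL and CELF genes, *Rbfox2* with *Qk*, a pair of RBPMS genes and a pair of ESRP genes.

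Pre-mRNA splicing removes introns and joins exons, and most mammalian genes can join their exons in more than 1 way. The SF3 complexes and U2AF recognise the branch point and the 3′ splice site at nearly every intron, whereas SR proteins bind exonic enhancers and mostly favour exon inclusion, and hnRNP proteins often bind silencers and favour skipping. Another layer is set by regulators whose amounts differ between tissues: PTBP1 represses exons that differentiated muscle and neurons include, PTBP2 is its neuronal and muscle-associated paralogue, MBNL, CELF, RBFOX2 and Quaking (the product of *Qk*) act in muscle differentiation, RBPMS and RBPMS2 drive smooth muscle exon choices, and ESRP1 and ESRP2 set epithelial ones.

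Tissue was jejunum smooth muscle of mice aged 15 days on a C57BL/6 background. The strain label is the same for both groups and names the transgene Tg(Myh11-cre,-EGFP)2Mik/J, on B6.Cg, with *Dnmt1*lox/lox. Cre recombinase and eGFP were thus driven by the *Myh11* promoter in both, and *Dnmt1*, the maintenance DNA methyltransferase, was deleted in the group labelled *Dnmt1* KO, by design only in cells that express *Myh11*, while the study describes the group labelled *Dnmt1* WT as carriers of Cre-eGFP without the deletion. The description field names the knockout for both samples, so the groups, here *Dnmt1*-WT and *Dnmt1*-KO, follow the genotype label and the title. Each genotype was represented by 1 mRNA library made from several mice of both sexes, and how their RNA was combined is not stated. No difference below therefore has a replicate check, no test between genotypes was possible, and all comparisons are between these libraries.

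Expression was given in FPKM, fragment numbers divided by transcript length and by how many fragments the library had mapped, which is a level per length and can be set side by side between genes. The targeted gene was lower in the *Dnmt1*-KO library, with *Dnmt1* at 11.6 FPKM in *Dnmt1*-WT and 7.58 FPKM in *Dnmt1*-KO, a ratio of 0.655. The defining markers of the labelled tissue were abundant in both libraries, with *Acta2* at 5408 and 4016 FPKM and *Myh11* at 2685 and 1256 FPKM in *Dnmt1*-WT and *Dnmt1*-KO. All 12 smooth muscle markers were lower in the *Dnmt1*-KO library, their summed level being 19944 FPKM in *Dnmt1*-WT and 13582 FPKM in *Dnmt1*-KO. Summed levels of the other marker lists were higher in *Dnmt1*-KO, at 209 and 424 FPKM for 12 epithelial genes, 48.0 and 136 FPKM for 12 leukocyte genes, 54.7 and 149 FPKM for 8 endothelial genes, 3317 and 5068 FPKM for 7 fibroblast genes and 667 and 773 FPKM for 10 enteric neuron genes. All 8 endothelial genes and 11 of the epithelial genes were higher, but only 5 of the fibroblast and 7 of the neuron genes, and *Col1a1*, at 700.4 and 1518 FPKM, made up much of the fibroblast sum's difference. The T cell marker *Cd3e* was at 0 in *Dnmt1*-WT. In bulk tissue, fewer cells of a type and less RNA per cell cannot be told apart, and the part that these shifts have in the values below was not tested.

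Most splicing regulators were abundant and differed little between the libraries. All 57 were above 0 FPKM in both, 54 had a mean of at least 10 FPKM, and 37 differed by no more than 20%. The ratio of FPKM, *Dnmt1*-KO over *Dnmt1*-WT, was below 1 for 42 and above 1 for 15, or 73.7% lower, where 49.1% of the 16102 genes above 0 FPKM in both libraries and 52.8% of the 6505 genes with a mean of at least 10 FPKM were lower. The median log2 ratio of the 57 was -0.13, a ratio of 0.912, beside 0.01 over all genes. Among the 54 abundant regulators it was -0.14, beside -0.03 over all genes that abundant. The direction was the same for 35 of the 57 under every alternative setting that kept the gene, 8 to 10 per gene, and turned under at least 1 for 22, most of which were close to a ratio of 1. Only the scalings and centrings among these settings could turn a direction. The FPKM filters leave the ratio of a kept gene as it is, and a pseudocount only shrinks it.

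Few regulators passed a 1.5-fold difference. A ratio of 1.5 or more was found for *Esrp1*, *Esrp2* and *Srsf12*, all of which were under 3 FPKM in both libraries, and for none of the 54 abundant regulators, where the share was 19.7% over all genes and 9.87% over abundant genes. A ratio of 1/1.5 or less was found for *Ptbp2*, *Celf1* and *Mbnl1*, where the share was 12.7% over all genes and 9.27% over abundant genes. *Rbpms2*, at a ratio of 0.667, lay just inside that limit. After centring on GC content only *Rbpms2* was past it, at a log2 ratio of -0.68, with *Ptbp2* at -0.55, *Celf1* at -0.54 and *Mbnl1* at -0.30, and *Srsf1*, at 0.63, was then past 1.5-fold higher. At 2-fold, only *Esrp1* was higher and no regulator was lower, where 11.8% of all genes and 4.14% of abundant genes had a ratio of 2 or more and 4.98% and 2.54% had a ratio of 0.5 or less. The plot of all members in both libraries shows how close the paired values lay over a wide range of levels.

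**Figure D1:**
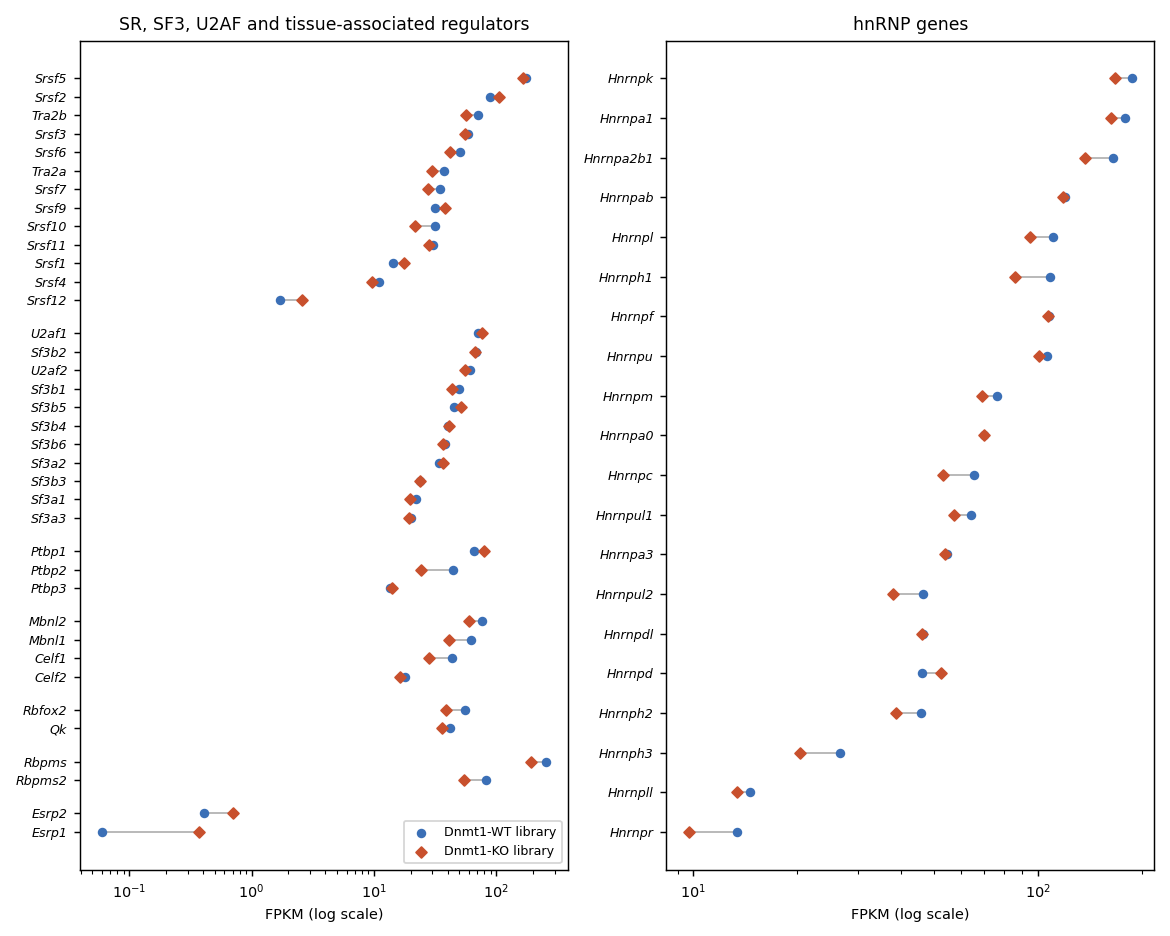
FPKM on a log scale of the 57 splicing regulators in the *Dnmt1*-WT library (blue circles) and the *Dnmt1*-KO library (red diamonds), 1 library per genotype, with a line joining the values of a gene. Most pairs nearly coincide, *Ptbp2* (44.0 and 24.1 FPKM), *Mbnl1* (62.5 and 40.7 FPKM) and *Celf1* (43.3 and 28.0 FPKM) stand apart, and the ESRP genes lie below 1 FPKM.

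Among the SR and Tra2 genes, 9 of 13 were lower and 4 were higher in *Dnmt1*-KO, where 49.1% of all genes and 52.8% of abundant genes were lower. Their median log2 ratio of -0.11 became 0.04 when ratios were centred on transcript GC content. *Srsf5*, the most abundant of them, was at 175 FPKM in *Dnmt1*-WT and 166 FPKM in *Dnmt1*-KO. *Srsf2*, which encodes SC35, the protein that names the nuclear speckle, was at 89.3 and 105 FPKM. *Srsf3*, the smallest SR protein, which also couples splicing to mRNA export, was at 58.6 and 56.0 FPKM. These 3 genes differed by less than 20%, and not all in the same direction, whereas after GC centring all 3 were higher, at log2 ratios of 0.25, 0.27 and 0.26 in that order. *Srsf1*, the founding SR protein and a general splicing factor, was 24.2% higher in *Dnmt1*-KO, at 14.3 and 17.8 FPKM, and its log2 ratio of 0.31 became 0.63 after GC centring, past 1.5-fold. *Srsf9*, its closest relative among the SR proteins, was higher too, at 31.6 and 38.3 FPKM. *Srsf12* was at 1.72 and 2.59 FPKM, the lowest SR gene in either library.

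*Srsf10* had the lowest ratio of this family. It was at 31.4 FPKM in *Dnmt1*-WT and 21.6 FPKM in *Dnmt1*-KO, a log2 ratio of -0.54. The gene encodes an SR protein that acts as a repressor when dephosphorylated. *Tra2a* and *Tra2b*, whose products bind GA-rich exonic enhancers, were at 37.3 and 29.7 FPKM and at 71.5 and 56.6 FPKM, and the *Tra2b* to *Tra2a* ratio was 1.92 in *Dnmt1*-WT and 1.91 in *Dnmt1*-KO. *Srsf7* was at 34.9 and 27.5 FPKM and *Srsf6* at 50.1 and 41.6 FPKM. *Srsf4* was at 11.0 and 9.63 FPKM, and *Srsf11* at 30.2 and 28.1 FPKM. *Srsf10*, *Srsf7*, *Tra2a*, *Tra2b* and *Srsf6* thus had ratios between 0.687 and 0.829. After GC centring *Srsf10* and *Tra2a* were at log2 ratios of -0.22 and -0.18, while *Srsf6*, *Srsf7* and *Tra2b* were at -0.049, -0.022 and -0.014, and *Srsf4* was the lowest of the family at -0.28.

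The hnRNP genes had the highest summed level of the 8 families, with 8 of 20 genes at 100 FPKM or more in *Dnmt1*-WT. They were lower in 18 cases and higher in 2, where 49.1% of all genes and 52.8% of abundant genes were lower. Their median log2 ratio of -0.15 became -0.11 when centred on transcript length and -0.00 when centred on GC content. Their summed level was 1655 FPKM in *Dnmt1*-WT and 1496 FPKM in *Dnmt1*-KO, and 17 of the 20 differed by no more than 20%. None passed 1.5-fold in either direction.

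*Hnrnpk*, which binds C-rich RNA, was at 188 and 167 FPKM in *Dnmt1*-WT and *Dnmt1*-KO. *Hnrnpa1*, the best known exon-skipping hnRNP, was at 179 and 164 FPKM. *Hnrnpa2b1*, its close paralogue, was at 165 and 137 FPKM. These 3 leading genes were all lower, at ratios between 0.832 and 0.912, but after GC centring *Hnrnpk* and *Hnrnpa1* turned to log2 ratios of 0.05 and 0.013 and *Hnrnpa2b1* came to -0.044. The other A and B members scarcely differed, with *Hnrnpab* at 119.8 and 119 FPKM, *Hnrnpa3* at 54.5 and 53.8 FPKM and *Hnrnpa0* at 69.8 and 69.9 FPKM, although *Hnrnpa3* came to a log2 ratio of 0.30 after GC centring. *Hnrnpf*, whose product binds G-runs, was nearly equal too, at 108 and 107 FPKM. The H genes of the same G-run binding group were lower, *Hnrnph1* at 108 and 85.6 FPKM, *Hnrnph2* at 45.7 and 38.8 FPKM and *Hnrnph3* at 26.7 and 20.4 FPKM, although after GC centring *Hnrnph1* and *Hnrnph2*, at log2 ratios of -0.016 and 0.09, were close to *Hnrnpf* at 0.03, and only *Hnrnph3* stayed apart at -0.24. Moreover, 67.3% of the 50-base words of *Hnrnpf* transcripts also occur in other genes, *Gm6430* sharing the most, and its level is less certain for that.

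*Hnrnpr* had the lowest ratio of the family, 13.4 and 9.69 FPKM or 0.723, but after GC centring its log2 ratio of -0.47 became -0.15 and that of *Hnrnpl*, -0.32, was the lowest. The centring of *Hnrnpr* rests on an annotated transcript of 21452 bases, the longest of any member. Whether that transcript is the one measured is unknown. *Hnrnpc*, which binds uridine tracts and packages nascent transcripts, was at 65.5 and 53.1 FPKM. *Hnrnpl*, which binds CA repeats, was at 111 and 94.7 FPKM, whereas its paralogue *Hnrnpll* was at 14.6 and 13.4 FPKM. *Hnrnpd*, which encodes AUF1, a factor of AU-rich mRNA turnover, was without centring the only hnRNP gene more than 10% higher, at 46.3 and 52.3 FPKM. After GC centring its log2 ratio was 0.40, and *Hnrnpa3*, *Hnrnpu* and *Hnrnpll*, at 0.30, 0.24 and 0.19, were more than 10% higher too. Its relative *Hnrnpdl* was at 46.4 and 46.2 FPKM. *Hnrnpm* was at 76.0 and 68.8 FPKM. The U group, which includes the scaffold attachment factor HNRNPU, was at 107 and 101 FPKM for *Hnrnpu*, 63.9 and 57.0 FPKM for *Hnrnpul1* and 46.6 and 38.1 FPKM for *Hnrnpul2*.

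The SF3 and U2AF genes were the steadiest family. All 11 differed by no more than 20% and 8 by no more than 10%, 6 were lower and 5 higher, and the median log2 ratio was -0.04. *Sf3b1*, the large subunit of the U2 snRNP that clasps the branch point and is often mutated in blood cancers, had the lowest ratio of the family, 0.870, at 49.5 and 43.1 FPKM. *Sf3b5*, a small subunit of the same complex, had the highest ratio, 1.14, at 44.9 and 51.4 FPKM. *Sf3b2* was at 68.2 and 66.5 FPKM, *Sf3b3* at 23.6 and 23.8 FPKM, *Sf3b4* at 40.4 and 40.9 FPKM and *Sf3b6*, the subunit at the branch point adenosine, at 37.8 and 36.5 FPKM. After GC centring *Sf3b1* turned to a log2 ratio of 0.02, *U2af2* was the lowest of the family at -0.23 and *Sf3b5*, at 0.34, was more than 20% higher. By FPKM, the subunits of SF3B kept their order except that *Sf3b5* passed *Sf3b1*. The SF3A subunits *Sf3a1*, *Sf3a2* and *Sf3a3* were at 22.0 and 19.7, 34.0 and 36.9, and 19.9 and 19.2 FPKM. *U2af2*, which reads the polypyrimidine tract, was at 61.0 and 55.5 FPKM, and *U2af1*, which reads the AG at the intron end, at 71.6 and 75.8 FPKM. For *U2af1* and *Sf3b4*, 59.4% and 51.2% of the 50-base words of their transcripts occur in other genes, the largest shares after *Hnrnpf*.

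Without GC centring, the PTBP family held the largest difference among the abundant regulators. After GC centring *Rbpms2*, at a log2 ratio of -0.68, and *Srsf1*, at 0.63, differed more than *Ptbp2*, at -0.55. *Ptbp2* was at 44.0 FPKM in *Dnmt1*-WT and 24.1 FPKM in *Dnmt1*-KO, a ratio of 0.547 and a log2 ratio of -0.87. *Ptbp1* was at 65.7 and 80.2 FPKM, a ratio of 1.22, without centring the second highest of the 54 abundant regulators after *Srsf1*. After GC centring *Ptbp1* was at a log2 ratio of 0.21, below *Ptbp3* at 0.38 and several other regulators. *Ptbp3* was at 13.5 and 14.0 FPKM. The paralogues therefore lay on opposite sides: *Ptbp1* exceeded *Ptbp2* 1.49-fold in *Dnmt1*-WT and 3.33-fold in *Dnmt1*-KO, while the sum of the 3 genes was nearly the same, at 123 and 118 FPKM. The lower level of *Ptbp2* held in all 10 alternative settings, between -0.97 and -0.55, with the smallest difference after GC centring. Its longest transcript had a GC content of 34.2%, the lowest of all members. *Ptbp1* stayed higher in all 10, between 0.19 and 0.32, although the filters and pseudocounts could not have turned the direction of either gene. The distance between *Ptbp1* and *Ptbp2* was smaller after GC centring, at log2 ratios of 0.21 and -0.55 in place of 0.29 and -0.87.

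The 150 bases upstream of the RefSeq start of *Ptbp1* and *Ptbp2* are shown because these paralogues lay on opposite sides. Bases are in lower case with CG pairs, the sites where DNMT1 maintains methylation, in capitals, and each is read 5′ to 3′ on the strand of its gene in GRCm38.p6. *Ptbp1* lies on chr10:79854427-79864771 of the plus strand and its stretch at chr10:79854282-79854431. *Ptbp2* lies on chr3:119718742-119784466 of the minus strand and its stretch at chr3:119783389-119783538. The RefSeq start of *Ptbp2* lies inside the GENCODE gene, which begins further upstream. The stretches hold 12 and 19 CG pairs, and neither gene has a TATAAA motif in its 300-base promoter.
Ptbp1: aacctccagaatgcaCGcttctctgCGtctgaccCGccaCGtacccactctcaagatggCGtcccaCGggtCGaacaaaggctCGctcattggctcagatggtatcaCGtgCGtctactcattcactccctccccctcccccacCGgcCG
Ptbp2: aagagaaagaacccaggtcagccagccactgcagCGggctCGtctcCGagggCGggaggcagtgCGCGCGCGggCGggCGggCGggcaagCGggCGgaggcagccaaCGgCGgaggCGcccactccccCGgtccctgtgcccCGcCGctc

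The 4 MBNL and CELF genes, *Rbfox2*, *Qk* and both RBPMS genes were all lower in *Dnmt1*-KO, with median log2 ratios of -0.49 for MBNL and CELF, -0.36 for *Rbfox2* and *Qk* and -0.49 for RBPMS. After GC centring these medians were -0.31, -0.20 and -0.52, and after length centring -0.28, -0.14 and -0.59, with only *Celf2* and *Qk* turning to the higher side. All 12 smooth muscle markers were lower beside them, at ratios between 0.427 and 0.893 with a median log2 ratio of -0.73.

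*Celf1*, whose product binds GU-rich RNA and is opposed by MBNL1 in muscle development, was at 43.3 and 28.0 FPKM in *Dnmt1*-WT and *Dnmt1*-KO, a log2 ratio of -0.63. *Mbnl1*, which promotes mature muscle splicing patterns and is sequestered in myotonic dystrophy, was at 62.5 and 40.7 FPKM, a log2 ratio of -0.62. Although their products act against each other on many exons, both transcripts were lower at nearly the same ratio, 0.645 and 0.651. *Mbnl2* was at 76.7 and 59.4 FPKM and *Celf2* at 17.9 and 16.4 FPKM, so that *Celf1* exceeded *Celf2* 2.43-fold in *Dnmt1*-WT and 1.71-fold in *Dnmt1*-KO. *Celf1* and *Mbnl1* each passed 1.5-fold in 8 of 10 alternative settings, among them the filters, which leave a ratio as it is. Their differences were smaller, at -0.38 and -0.43, once ratios were centred on transcript length.

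*Rbpms* was the most abundant of all 57 regulators in both libraries, at 254 FPKM in *Dnmt1*-WT and 192 FPKM in *Dnmt1*-KO. *Rbpms2*, which marks and shapes visceral smooth muscle, was at 81.7 and 54.5 FPKM. Both paralogues were lower, at ratios of 0.755 and 0.667, and *Rbpms* exceeded *Rbpms2* 3.11-fold and 3.52-fold. The difference of *Rbpms2* was larger under both centrings, to -0.72 for length and -0.68 for GC content. *Rbfox2*, which binds UGCAUG, was at 55.0 and 38.6 FPKM, a log2 ratio of -0.51. *Qk*, which encodes the STAR protein Quaking, was at 41.6 and 35.9 FPKM, and its direction turned under both centrings, to 0.04 and 0.11.

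The upstream stretches of *Celf1*, *Mbnl1* and *Rbpms2* are shown because these were, with *Ptbp2*, the lowest ratios among the members, and because *Mbnl1* has a pair of starts that differ in CG content. All 3 genes are on the plus strand, *Celf1* at chr2:90940382-91019497, *Mbnl1* at chr3:60472830-60629750 and *Rbpms2* at chr9:65629648-65660528 in GRCm38. The stretches are at chr2:90940247-90940396 for *Celf1*, chr3:60472680-60472829 and chr3:60501029-60501178 for the first and second start of *Mbnl1*, and chr9:65630432-65630581 for *Rbpms2*, with 20, 1, 27 and 27 CG pairs in capitals. The stretches of *Rbpms2* and of the second *Mbnl1* start lie inside the GENCODE genes, those of *Celf1* and the first *Mbnl1* start at their upstream edge. The first *Mbnl1* promoter holds a TATAAA motif and the second does not. The table gives 1 level for the whole *Mbnl1* gene, so the share of each start in it is unknown.
Celf1: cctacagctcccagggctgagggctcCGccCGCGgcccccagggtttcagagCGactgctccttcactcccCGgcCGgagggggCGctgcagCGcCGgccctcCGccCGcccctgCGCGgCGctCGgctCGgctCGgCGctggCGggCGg
Mbnl1 first start: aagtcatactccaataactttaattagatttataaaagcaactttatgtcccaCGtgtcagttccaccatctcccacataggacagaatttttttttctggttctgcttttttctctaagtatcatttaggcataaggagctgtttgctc
Mbnl1 second start: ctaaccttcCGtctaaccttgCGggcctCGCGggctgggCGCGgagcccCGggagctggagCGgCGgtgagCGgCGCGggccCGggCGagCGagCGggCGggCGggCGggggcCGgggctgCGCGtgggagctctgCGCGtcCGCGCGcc
Rbpms2: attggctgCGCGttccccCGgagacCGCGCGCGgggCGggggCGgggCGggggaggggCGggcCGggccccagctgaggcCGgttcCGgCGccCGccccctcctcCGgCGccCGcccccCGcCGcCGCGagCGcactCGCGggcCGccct

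The epithelial regulators were barely present. *Esrp1* was listed at 0.06 FPKM in *Dnmt1*-WT and 0.37 FPKM in *Dnmt1*-KO, and *Esrp2* at 0.41 and 0.70 FPKM. Both were higher in the *Dnmt1*-KO library, but at levels near the lower end of the table, and adding 1 to each FPKM brought their log2 ratios from 2.62 and 0.77 to 0.37 and 0.27. Of the 12 epithelial markers, 11 were higher in *Dnmt1*-KO beside them, with a median log2 ratio of 1.11, and the 4 most abundant were *Krt19* (96.1 and 188 FPKM), *Fabp2* (38.8 and 85.1 FPKM), *Krt8* (24.6 and 57.5 FPKM) and *Krt18* (17.8 and 38.1 FPKM). Their part in the ESRP values was not tested.

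Genes that work with these regulators gave a mixed picture over lists of splicing genes. The 39 core genes of the snRNPs and tri-snRNP split evenly, with 20 lower and 19 higher and a median log2 ratio of -0.00. Past 1.5-fold were *Lsm6* (30.3 and 45.9 FPKM) and *Lsm4* (34.8 and 58.2 FPKM), which belong to the ring on U6 RNA, and *Snrpn*, an imprinted gene, at 1.01 and 3.44 FPKM. None was past 1.5-fold lower, where the share over all genes was 12.7%, and 19.7% of all genes were past 1.5-fold higher. The core machinery and the SF3 and U2AF genes thus had medians close to that of all genes.

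The kinases and other factors that act on SR proteins were lower in 10 of 11 cases, with a median log2 ratio of -0.49. The share lower was 49.1% over all genes and 52.8% over abundant genes. SR proteins depend on phosphorylation of their arginine and serine repeats, by SRPK kinases in the cytoplasm and CLK kinases in the nucleus, for entry into the nucleus and release from speckles. *Clk1* was at 65.9 FPKM in *Dnmt1*-WT and 38.2 FPKM in *Dnmt1*-KO. *Srpk2* was at 22.5 and 14.7 FPKM, *Prpf4b* at 16.7 and 10.9 FPKM and the muscle kinase *Srpk3* at 2.92 and 1.55 FPKM. These were the 4 past 1.5-fold lower, where the share was 12.7% over all genes and 9.27% over abundant genes, and none was past 1.5-fold higher. The list's median was -0.37 after length centring and -0.30 after GC centring.

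Of 48 other sequence-specific splicing regulators, 31 were lower and 17 higher, where 49.1% of all genes and 52.8% of abundant genes were lower. Their median log2 ratio of -0.17 became -0.051 after length centring and -0.029 after GC centring. Past 1.5-fold lower were 9 of the 48, where the share was 12.7% over all genes and 9.27% over abundant genes. The most abundant of these 9 were *Rbm38* (52.3 and 31.8 FPKM), *Khdrbs3* (43.7 and 25.2 FPKM), *Luc7l3* (37.3 and 21.1 FPKM), *Rbm24* (35.8 and 18.5 FPKM) and *Tial1* (18.4 and 12.1 FPKM). *Rbm24* and *Rbm38* are paralogues known from muscle differentiation. *Raver2*, which encodes a partner of PTBP proteins, was at 7.93 and 4.37 FPKM, *Rbm4* at 5.09 and 3.36 FPKM, *Khdrbs2* at 3.60 and 2.13 FPKM and *Mbnl3*, the third muscleblind gene, at 0.57 and 0.30 FPKM. Only *Rbm20*, known for its control of titin splicing in heart, was past 1.5-fold higher, at 0.71 and 2.83 FPKM, where the share was 19.7% over all genes. The relatives *Celf3*, *Celf4*, *Celf5*, *Celf6*, *Rbfox1* and *Rbfox3*, picked after their values were seen, lay above 1, at ratios between 1.11 and 1.35. Without centring, the CELF and RBFOX genes among the members lay below 1, but *Celf2* turned to log2 ratios of 0.12 and 0.09 after length and GC centring. Other genes of the 48 went both ways, with *Elavl2*, *Elavl3* and *Elavl4* lower, at ratios of 0.869, 0.907 and 0.835. *Nova1*, *Nova2* and *Srrm4* were higher, at ratios of 1.39, 1.36 and 1.498. *Elavl3* and *Elavl4* are also among the 10 enteric neuron markers, of which 7 were higher, with a median log2 ratio of 0.19. The part of these markers in the values above was not tested. The plot of log2 ratios by family sets the lists of RNA processing genes beside the members.

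**Figure D2:**
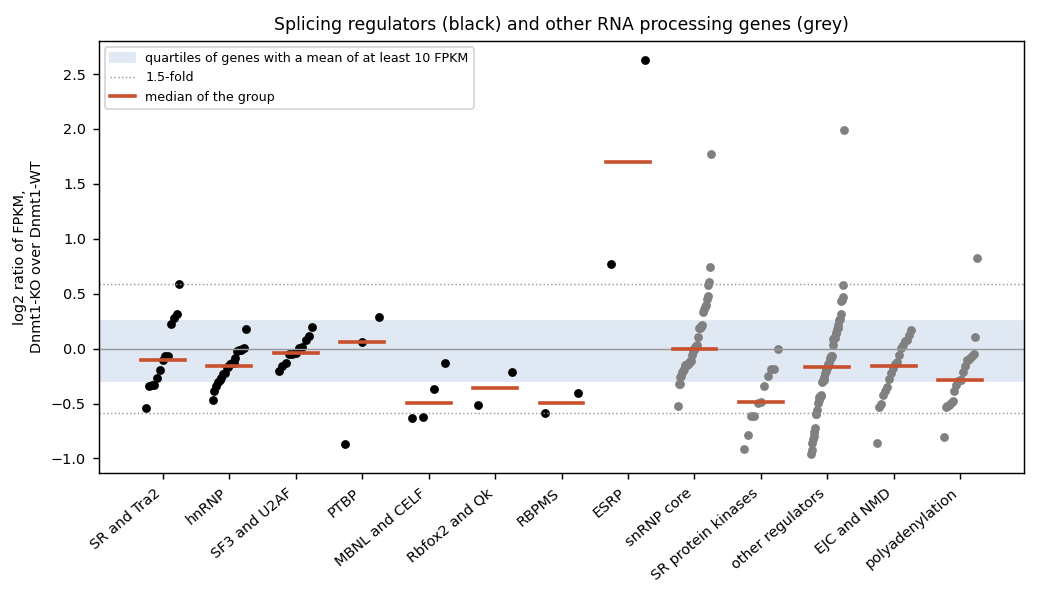
Log2 ratio of FPKM, *Dnmt1*-KO over *Dnmt1*-WT, for the 8 families of splicing regulators (black) and 5 lists of RNA processing genes (grey), 1 point per gene, with the group median as a red bar, 1.5-fold as dotted lines and the quartiles of genes with a mean of at least 10 FPKM shaded. The medians of SF3 and U2AF (-0.04) and of the snRNP core (-0.00) lie near 0, those of MBNL and CELF (-0.49), RBPMS (-0.49) and the SR kinases (-0.49) lie lower, and the pair of ESRP genes is higher at very low FPKM.

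Genes with exons known to be regulated in smooth muscle gave the levels of the transcripts on which these factors act. Of 19 such genes, 15 were lower and 4 higher, 11 were past 1.5-fold lower and none past 1.5-fold higher, with a median log2 ratio of -0.63. Over all genes 49.1% were lower and 12.7% were past 1.5-fold lower, and over abundant genes 52.8% and 9.27%. Several of the 19 are contractile genes that the smooth muscle marker list also holds. *Tpm1*, whose mutually exclusive exons are a classic PTBP1 target in smooth muscle, was at 3558 and 2018 FPKM with 9 and 10 transcript variants. The table gives whole-gene levels, so exon inclusion was not analysed here.

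The number of transcript variants found per gene was nearly the same in both libraries. The 57 regulators had 183 variants in *Dnmt1*-WT and 182 in *Dnmt1*-KO, with a median of 3 per gene where all genes had a median of 2. The number was equal for 48 of the 57, lower in *Dnmt1*-KO for 5 and higher for 4, where 13.6% of all genes and 10.7% of abundant genes had fewer and 12.5% and 10.1% had more. The 5 with fewer were *Tra2a*, *Hnrnpab*, *Sf3b3* and *Srsf12*, each from 3 to 2, and *Hnrnpr*, from 5 to 4. The 4 with more were *Hnrnpa1* (5 to 6), *Hnrnpf* (4 to 5), *Hnrnpul2* (2 to 3) and *Hnrnpc*, which had the most variants of all members (10 to 11). No regulator differed by more than 1 variant, and *Ptbp1*, *Ptbp2*, *Mbnl1*, *Celf1*, *Rbfox2* and both RBPMS genes had as many in either library. The variants are counted but not named in the table, so equal numbers need not be the same transcripts.

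Many of these regulators control their own amount by splicing in an exon that sends the transcript to nonsense-mediated decay, a loop well known for SR and PTBP genes. In GENCODE M21, 30 of the 57, or 52.6%, have at least 1 transcript annotated as a target of nonsense-mediated decay, where 28.5% of 6199 protein-coding genes with a mean of at least 10 FPKM have one. The 57 have a median of 8 annotated transcripts per gene, beside 5 over the 6199, and the part of this in these shares was not tested. Such a transcript is annotated for all 3 PTBP genes, 11 of 13 SR and Tra2 genes, 10 of 20 hnRNP genes and 3 of 11 SF3 and U2AF genes. It is also annotated for 1 of 4 MBNL and CELF genes, *Qk* and *Rbpms*, and for no ESRP gene. The annotation describes the genes and not these libraries, and the levels of single transcripts were not analysed here.

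The lower side of the members went with properties of their transcripts, whose part in it was not tested. Their longest transcripts had a median GC content of 45.0%, beside 50.9% over protein-coding genes with a mean of at least 10 FPKM, and a median length of 3645 bases beside 3181. Across all abundant genes in 10 equal bins, the median log2 ratio ran from -0.27 in the lowest GC bin, between 31.2% and 42.2%, to 0.15 in the highest, and from 0.27 in the shortest bin to -0.27 in the longest. Of the 54 abundant members, 31 fell in the 3 lowest GC bins, and the 20 in the lowest bin had a median of -0.16, above that of the bin. Centring used other bins, 10 drawn over genes that reached 1 FPKM in each library, so its offsets differ from the medians above. With ratios centred within those GC bins, 30 members were lower and 27 higher, or 52.6% lower in place of 73.7%. Their median was then -0.014, beside 0.036 over all genes. Centring on length left 40 lower and 17 higher. The plot of ratios against GC content and length shows that *Ptbp2*, *Mbnl1*, *Celf1* and *Rbpms2* lay below the line of all genes in both views.

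**Figure D3:**
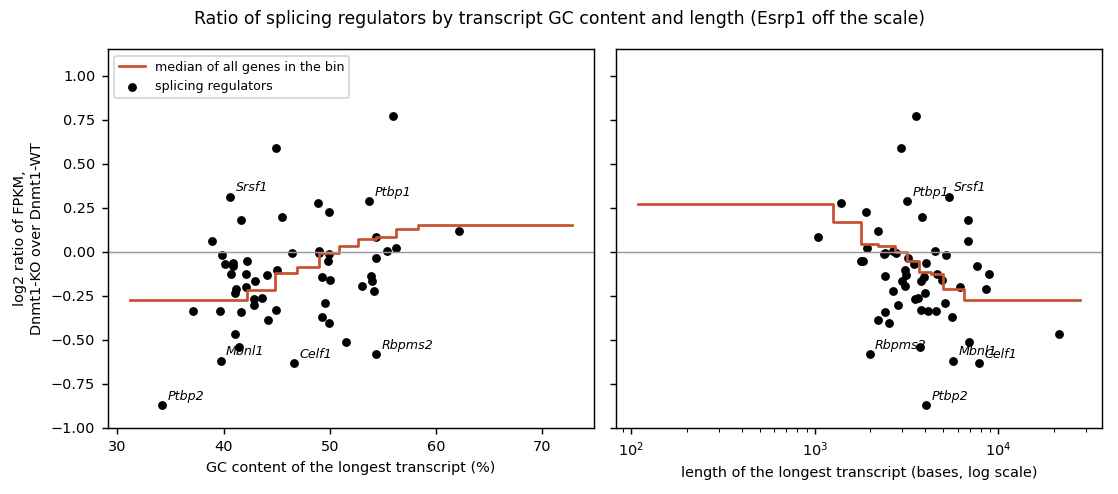
Log2 ratio of FPKM, *Dnmt1*-KO over *Dnmt1*-WT, of each splicing regulator (black points) against the GC content in percent and the length in bases (log axis) of its longest GENCODE M21 transcript, with the median of all genes with a mean of at least 10 FPKM in 10 equal bins as a red line. The line climbs from -0.27 to 0.15 with GC content and drops from 0.27 to -0.27 with length, most members are on the low GC side, and *Esrp1* is beyond the scale.

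The promoters of these genes are dense in CG pairs. The RefSeq promoter table of GRCm38.p6, from 250 bases before to 50 after each start, held 66 promoters of 47 members, and *Esrp1*, *Esrp2*, *Hnrnpll*, *Hnrnpul2*, *Ptbp3*, *Rbfox2*, *Rbpms*, *Sf3b4*, *Sf3b5* and *U2af2* had no entry. The median was 27 CG pairs per 300 bases, beside 21 over 6427 promoters of protein-coding genes with a mean of at least 10 FPKM and 7 over all 32851 promoters. SR and Tra2 promoters had a median of 30, hnRNP promoters 28 and SF3 and U2AF promoters 23.5. The 9 MBNL and CELF promoters had a median of 8, but most of them are starts of *Celf2*. *Celf1* had 34 CG pairs, the second start of *Mbnl1* 41, the densest start of *Celf2* 48 and *Mbnl2* 10. *Qk* had the most, 57, followed by *Hnrnpa0* with 52 and *Srsf4* with 49. The lowest counts were at the first start of *Mbnl1*, with 2, at all starts of *Celf2* except one, with 4 to 8, and at the first start of *Hnrnpf*, with 7. The motif TATAAA, searched on both strands, was in 7 of the 66, or 10.6%, beside 7.22% of promoters of abundant genes and 13.6% of all promoters. The CArG box bound by SRF, the master factor of contractile genes, was found in 1 of the 66, that of *Hnrnpd*, or 1.52%, beside 1.63% of all promoters. DNA methylation itself was not analysed here.

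**Figure D4:**
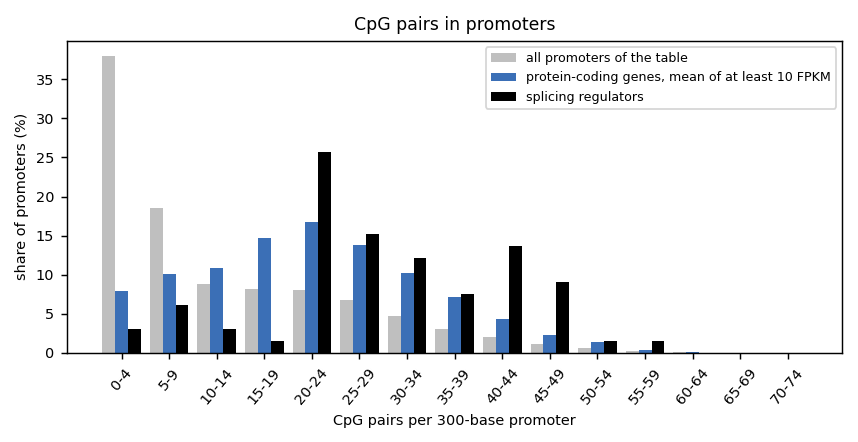
Share of promoters, in percent, by the number of CG pairs in 300 bases around the start, for all promoters of the table (grey), promoters of protein-coding genes with a mean of at least 10 FPKM (blue) and promoters of the splicing regulators (black). The medians are 7, 21 and 27 CG pairs, and few regulators have a promoter with fewer than 20.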

How the data were processed

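The authors deposited 1 table with FPKM per gene for 1 library of each genotype, made with TruSeq RNA libraries, and, per the file headers, how many transcript variants each library showed per gene. The submitters' processing notes name TopHat 1.4.1, Cufflinks 2.0.2 and the mm10 build, and how variants were judged is not given in the sources used here. A column with the authors' own comparison of the libraries was not used. Read counts per gene are unknown, so counting error and depth per gene are unknown too, and no interval was computed.

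Ratios are plain ratios of the deposited FPKM of *Dnmt1*-KO over *Dnmt1*-WT, over genes above 0 FPKM in both libraries, with no rescaling, pseudocount or test. All genes were put through the same steps. Members were taken by symbol. The members and the gene lists were chosen with earlier results of these data known. Every member may be named, and of other lists the genes past 1.5-fold, and of marker lists up to 4 of the most abundant, with *Cd3e* added for being at 0. *Tpm1*, *Col1a1*, the CELF and RBFOX relatives, *Elavl2*, *Elavl3*, *Elavl4*, *Nova1*, *Nova2* and *Srrm4* were chosen after their values were seen. 1 marker gene is not reported here. Alternatives were 4 scalings between libraries, pseudocounts of 0.1 and 1, filters at 1 and 10 FPKM, and centring on transcript length or GC content in 10 bins. The bins for centring were drawn over genes that reached 1 FPKM in each library, unlike the plotted bins of abundant genes.

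Transcript length, GC content, positions and annotated transcripts came from GENCODE M21 on GRCm38, where 17204 of the 18159 symbols (94.7%) and all 57 members were matched. Sharing between genes was counted over words of 50 bases. Promoter sequences came from RefSeq. Python 3.11.15, numpy 2.4.6, pandas 2.3.3 and matplotlib 3.10.9 were used, and the counting steps were tested on simulated data.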

Additional observations from a re-analysis of the deposited data

How the results depend on the processing

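No paired analysis was possible because each genotype has 1 library, and for the same reason no library could be left out. No regulator past 1.5-fold turned direction under the alternatives, of which only the scalings and centrings could turn one, but several sizes moved. Dividing each library by its FPKM sum shifted the median of all genes from 0.01 to -0.10, and with it the medians of the 57 regulators to -0.23, of the snRNP core to -0.10, of the SR kinases to -0.59, of other regulators to -0.27, of exon junction and decay genes to -0.26, of polyadenylation genes to -0.39 and of genes with smooth muscle exons to -0.73, and 6 regulators were then past 1.5-fold lower, also with small RNA genes left out of the sum. Centring on length moved the SR kinases to -0.37 and other regulators to -0.051. Centring on GC content moved the 57 regulators to -0.014 with 27 higher and 1, *Rbpms2*, past 1.5-fold lower and 4 past 1.5-fold higher, *Srsf1* being added, the snRNP core to 0.11, the SR kinases to -0.30, other regulators to -0.029 and polyadenylation genes to -0.18. With 1 added to each FPKM, or at least 10 FPKM required in both, 0 regulators were past 1.5-fold or 2-fold higher, and with at least 1 FPKM required, 1 and 0. At 10 FPKM in both, 3 regulators had fewer variants, and 0 had a difference of 2 or more variants in either direction. How many fragments lie behind the lowest values, such as those of the ESRP genes, is unknown.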

Other observations

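RNA processing after splicing was measured on lists not described above. Of 18 genes of the exon junction complex and nonsense-mediated decay, which mark spliced mRNA and remove faulty transcripts, 12 were lower and 6 higher in *Dnmt1*-KO, with a median log2 ratio of -0.15. Only *Upf2*, an adaptor of the decay machinery, was past 1.5-fold, at 10.5 FPKM in *Dnmt1*-WT and 5.79 FPKM in *Dnmt1*-KO. Of 20 cleavage and polyadenylation genes, which cut and tail the 3′ end, 18 were lower and 2 higher, with a median log2 ratio of -0.28. *Papolg*, a poly(A) polymerase, was past 1.5-fold lower at 4.55 and 2.60 FPKM, and *Clp1*, an RNA kinase of the cleavage complex, past 1.5-fold higher at 2.58 and 4.58 FPKM. With ratios centred on GC content, the polyadenylation median was -0.18. Over all genes, 12.7% were past 1.5-fold lower, 19.7% were past 1.5-fold higher and 49.1% were lower. Neither list could be set against replicates.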
